A study of Drosophila melanogaster with 6 samples.

Results

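Integrins are cell surface receptors made of 1 alpha and 1 beta subunit. Outside the cell they bind extracellular matrix proteins, and inside it their tails recruit talin, the kinase-like scaffold Ilk and vinculin, which tie the receptor to the actin cytoskeleton. In the Drosophila ovary they are best known from somatic cells, namely the follicle epithelium and the muscle sheath, while germline stem cells are known to be held in their niche mainly by E-cadherin. The 9 genes described here are the beta subunit genes mys and ItgbetaNu, the alpha subunit genes mew, if and scb, the matrix ligand gene Tig, and the linker genes rhea, Ilk and Vinc. They were taken by gene symbol from the array annotation, out of 10844 genes measured. ItgbetaNu is listed there under its current symbol Itgbn, which is used from here on. The 9 genes had 10 probe sets, 1 each except rhea, which had 2, and all 10 are reported.

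Transcripts were measured in 6 samples of Drosophila melanogaster. GSC 1 to 3 were germline stem cells, described by the labels as highly purified, from ovaries mutant for bam, a gene whose loss keeps germ cells from differentiating. Kc 1 to 3 were Kc cells, a single embryo-derived line kept in culture. The labels give no bam allele, strain, sex or age, and the design's samples of Dpp overexpression were not analysed here. Both groups were labelled with the same transcript labelling kit. The labels do not say whether a group's arrays are separate dissections or cultures. The p-values below therefore reflect the spread between these arrays alone, and that spread may be technical.

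The values are the authors' signals on a linear scale, 1 per probe set and array. Array medians lay between 148.5 and 176.5. The labelled cell types were checked with marker genes. All 7 germline markers were higher in GSC, with summed signals of 31065 to 35000 on the GSC arrays and 333 to 438 on the Kc arrays. Of 6 measured hemocyte markers 3 were lower in GSC, with summed signals of 124 to 173 in GSC and 17176 to 17797 in Kc. These were Hml, Pxn and srp, with Kc means of 11629, 4066 and 1682. The markers NimC1, eater and Sr-CI were dim in Kc too, with means of 26.2, 34.4 and 37.5, below the 25th percentile of all values (37.9). For actin the control probe set at the 3' end over that at the 5' end gave a GSC ratio of 4.58 ± 0.313 and a Kc ratio of 1.85 ± 0.0789 (SD, n = 3), and the same ratio also lay higher on every GSC array for GAPDH and eIF-4a. The part of these differences in the results below was not tested.

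A probe set was called when its limma p, adjusted over all 13966 probe sets, was under 0.05 and its fold at least 2. Folds are GSC over Kc on a log2 scale after adding 37.9, the 25th percentile of all values, to each signal. They therefore understate the change of dim probe sets. By this rule 1 of the 10 probe sets was higher in GSC, 2 were lower and 7 passed neither way. Across the array 19.8% of probe sets were called, 11.7% higher and 8.11% lower. Of these calls 59.1% were higher, and 80.4% were under hybridisation control scaling. The groups did not overlap for the same 3 probe sets, with GSC above for 1 and below for 2. Over all probe sets 45.4% had groups apart, 25.7% with GSC above and 19.7% below. The median log2 fold was -0.28 over the 10 probe sets and 0.03 over all. As a set these genes thus gave a share of calls of the same order as the array. The differences that stood out belonged to 3 genes, the ligand gene Tig, the alpha subunit gene mew and the talin gene rhea.

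**Figure D1:**
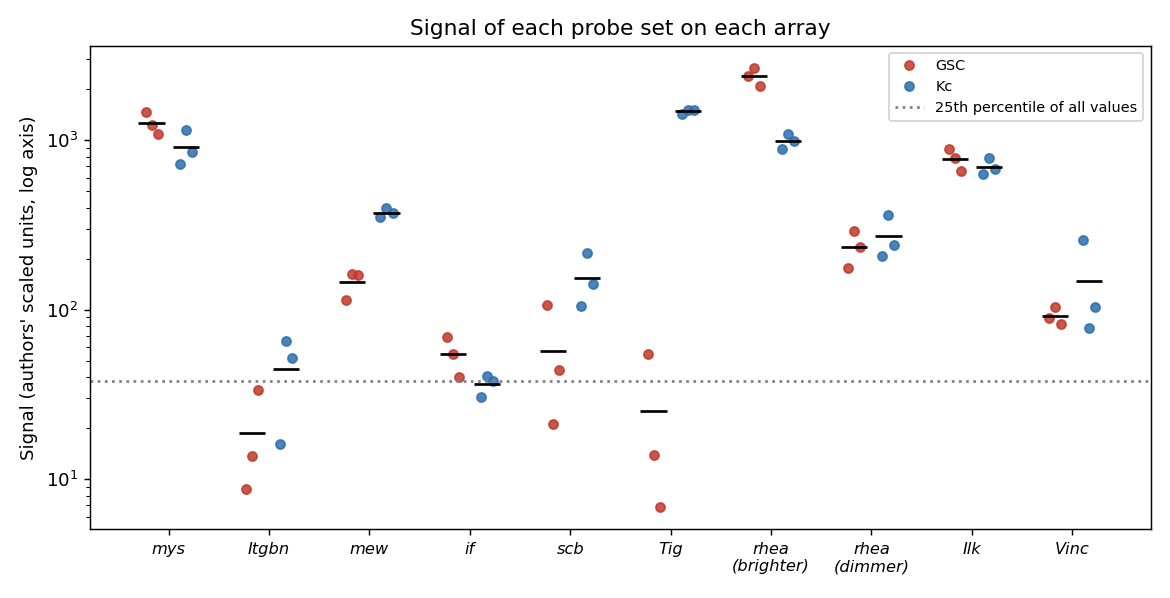
Signal of each of the 10 probe sets on each array, on a log axis in the authors' scaled units. Points are single arrays (GSC red, Kc blue), black bars are group means of 3 arrays, and the dotted line is the 25th percentile of all values, 37.9. Only Tig, mew and the brighter rhea probe set separate the groups. Heights of different probe sets are not comparable.

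The ligand gene Tig gave by far the widest separation. Tig encodes tiggrin, a secreted matrix protein that binds the integrin made of the if and mys products and is known from muscle attachment sites. Its signal was 55, 13.9 and 6.8 across GSC 1 to 3, and 1425.1, 1516.5 and 1500 across Kc 1 to 3. The GSC values differed among themselves by more than the Kc values did in proportion, with a coefficient of variation of 103% against 3.29%, and 2 of the 3 lay below the 25th percentile of all values. The log2 fold was -4.66 ± 0.27 (SE, adjusted p = 1.29e-06), with a 95% interval from -5.28 to -4.05. In a bulk sample, fewer cells with a transcript and less transcript per cell cannot be told apart. The size of the Tig fold depended on the pseudocount and was -3.14 with the pseudocount at the median of all values and -6.31 with a pseudocount of 1. The call itself held under all 15 alternatives of normalization, pseudocount, filtering, variance model and left-out array, with adjusted p between 2.75e-12 and 0.000188.

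The beta subunit gene mys was bright in both groups. Its product, the βPS subunit, pairs with the products of mew, if and scb, so it is common to most fly integrins. The signal of mys was 1477.3, 1234.3 and 1084.1 across GSC 1 to 3, and 722.5, 1151.6 and 854 across Kc 1 to 3. The highest Kc array, Kc 2, lay above the lowest GSC array, so the groups overlapped. The means were 1265 ± 198 in GSC and 909 ± 220 in Kc (SD, n = 3), a log2 fold of 0.47 ± 0.18 (SE, adjusted p = 0.0755). The interval ran from 0.06 to 0.89, which leaves a fold between 1.04 and 1.85 and stays under the fold minimum. mys was called under 0 of the 15 alternatives, and its adjusted p ranged from 0.0175, without Kc 2, to 0.232. With scaling to the hybridisation controls its log2 fold was 0.91 (adjusted p = 0.0233), still short of the minimum.

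The other beta subunit gene, Itgbn, encodes βν, which is known from the clearance of dying cells by phagocytes. It was dim in both groups. The signals were 8.7, 13.6 and 33.6 across GSC 1 to 3, and 16.1, 65.3 and 51.7 across Kc 1 to 3, and 4 of the 6 values lay below the 25th percentile. The groups overlapped, with a log2 fold of -0.51 ± 0.3 (SE, adjusted p = 0.232). The interval ran from -1.18 to 0.15.

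Among the alpha subunit genes, mew was lower in GSC. Its product pairs with the mys product to form a laminin receptor. The signal was 113.4, 162.6 and 160.1 across GSC 1 to 3, and 350.9, 399.6 and 370.5 across Kc 1 to 3. Every GSC array lay below every Kc array. The log2 fold was -1.18 ± 0.2 (SE, adjusted p = 0.00129), with an interval from -1.63 to -0.72. It fell below the fold minimum with the pseudocount at the median (-0.81, adjusted p = 0.000967) and was lost with scaling to the hybridisation controls (-0.79, adjusted p = 0.0829). Those controls had geometric mean signals of 2113, 2884 and 3753 across GSC 1 to 3, and of 4302, 3746 and 3636 across Kc 1 to 3. With that scaling the median over all probe sets was 0.32 on the log2 scale, and relative to this median mew stood at -1.11, against -1.20 relative to the median in the main comparison.

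The alpha subunit gene scb, whose product is known from the embryonic heart and salivary gland and from memory in the adult brain, had signals of 106.4, 21.1 and 43.9 across GSC 1 to 3, and 104.5, 216.2 and 141.9 across Kc 1 to 3. GSC 1 lay just above Kc 1, and the other GSC arrays lay below all Kc arrays. The log2 fold of scb was -1.07 ± 0.39 (SE, adjusted p = 0.0606), so it was not called. The estimate turned on single arrays. Without GSC 1 the log2 fold was -1.43 (adjusted p = 0.0206), and without GSC 2 it was -0.78 (adjusted p = 0.2). Quantile normalization (adjusted p = 0.0471), scaling to the median (0.0434) and leaving out dim probe sets (0.0414) each brought scb past the threshold.

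The third alpha subunit gene, if, encodes the partner of mys that binds Tig protein, and it was dim in both groups. Its signal was 69.1, 54.9 and 40.3 across GSC 1 to 3, and 30.6, 40.5 and 37.9 across Kc 1 to 3. The ranges overlapped only in that GSC 3 lay just below Kc 2. The log2 fold was 0.31 ± 0.27 (SE, adjusted p = 0.438), with an interval from -0.29 to 0.91. The if signal thus showed no called difference, while the signal of Tig, its ligand gene, was lower in GSC. Whether Tig and if differed from each other in response was not tested.

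**Figure D2:**
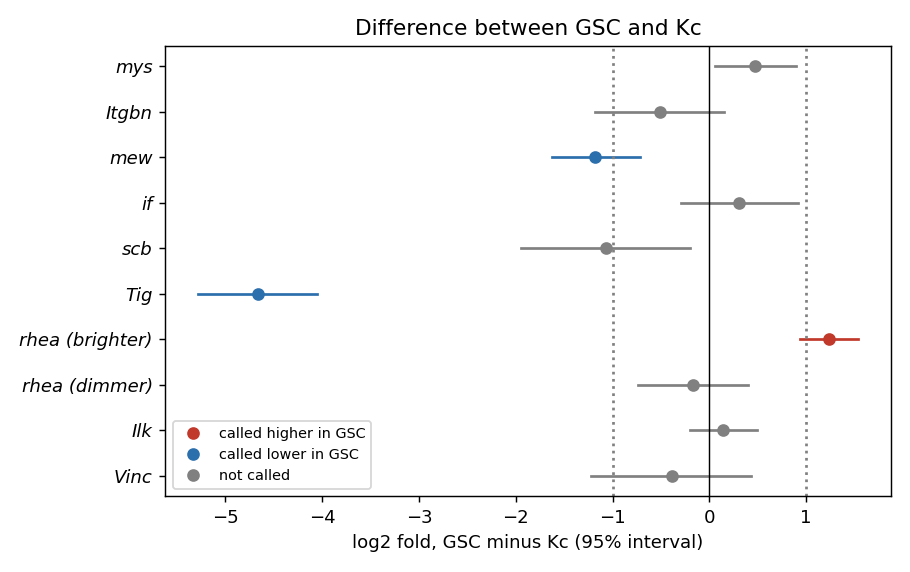
log2 fold of GSC over Kc for each probe set, with its 95% interval from limma (3 arrays a group). Dotted lines mark a fold of 2 in each direction. Tig (-4.66) and mew (-1.18) were called lower (blue), the brighter rhea probe set (1.24) was called higher (red), and grey probe sets were not called.

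Because alpha and beta subunits work as pairs, the difference in log2 signal between each alpha gene and mys was taken within each array, where array-wide scaling nearly cancels. These differences, and that of the rhea probe sets, are 4 comparisons with an exact two-sided permutation test, which cannot go below p = 0.1 with 3 against 3 arrays. The mew value relative to mys was -2.83 ± 0.43 in GSC and -1.18 ± 0.24 in Kc (SD, n = 3), a shift of -1.65 ± 0.29 (SE, exact permutation p = 0.1, adjusted 0.133). For scb relative to mys the shift was -1.55 ± 0.31 (exact permutation p = 0.1, adjusted 0.133), and for both genes the arrays of the groups did not overlap. For if relative to mys it was -0.16 ± 0.14 (exact permutation p = 0.4), with overlapping arrays. Relative to mys, then, mew and scb were lower on all 3 GSC arrays than on any Kc array. Each shift also includes the log2 fold of mys itself (0.47), and the scb signal on its own overlapped between the groups. None of these shifts can pass a threshold of 0.05 in this design.

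**Figure D3:**
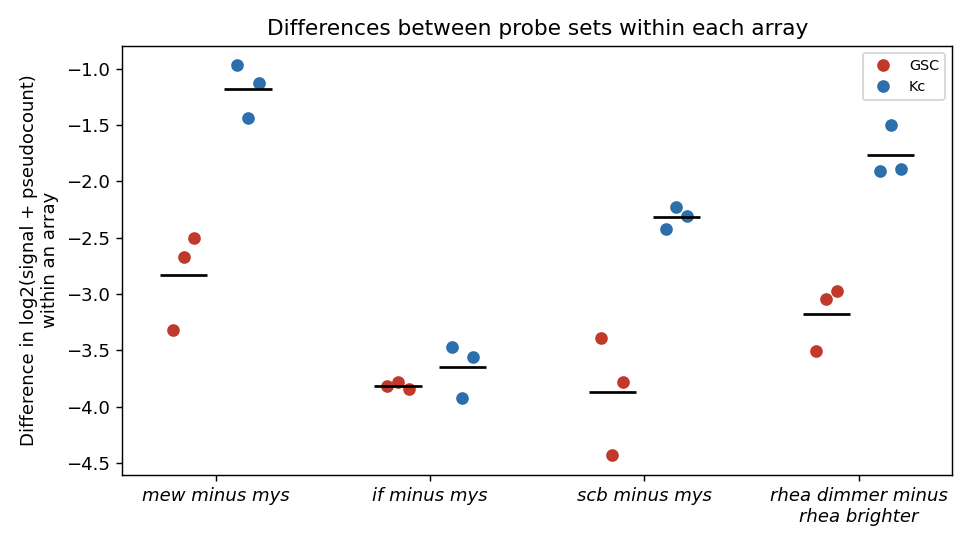
Difference in log2(signal + 37.9) between 2 probe sets on the same array, for mew, if and scb against mys and for the 2 rhea probe sets. Points are arrays and bars are group means of 3. GSC (red) lies below Kc (blue) on every array for mew, scb and rhea, with shifts of -1.65, -1.55 and -1.41. The height itself compares different probe sets and carries no meaning.

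Talin, the product of rhea, binds the tail of the beta subunit and joins it to actin. The brighter rhea probe set had signals of 2408.5, 2671.8 and 2101.3 across GSC 1 to 3, and 884.6, 1095 and 993.8 across Kc 1 to 3. The groups were apart, with every GSC value above the highest Kc value. The log2 fold was 1.24 ± 0.13 (SE, adjusted p = 5.7e-05). This probe set was called under all 15 alternatives, with log2 folds between 1.12 and 1.68. The dimmer rhea probe set had 176.6, 291.6 and 235.3 across GSC 1 to 3 and 207.3, 363.3 and 241.4 across Kc 1 to 3. Its groups overlapped, and its log2 fold was -0.17 ± 0.25 (SE, adjusted p = 0.681). Within arrays the dimmer probe set shifted by -1.41 ± 0.22 relative to the brighter one (SE, exact permutation p = 0.1), without overlap between groups. The mean over both probe sets, chosen after the data were seen, put rhea at 0.53 on the log2 scale (adjusted p = 0.0362), short of the fold minimum. A higher rhea transcript level in GSC therefore rests on 1 of 2 probe sets. Where each probe set lies along the rhea transcripts is not known here, and the higher 3' to 5' ratios of the control transcripts in GSC accompany this disagreement. Their part in it was not tested.

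Ilk, a scaffold that binds PINCH and parvin at the integrin tail, gave close signals in both groups. They were 890, 782.3 and 655 across GSC 1 to 3, and 631, 781.5 and 679.6 across Kc 1 to 3. The log2 fold was 0.14 ± 0.15 (SE, adjusted p = 0.553), and the interval from -0.20 to 0.49 kept Ilk between 0.869 and 1.4 times its Kc level. Scaling to the hybridisation controls raised the log2 fold to 0.57 (adjusted p = 0.179). Relative to the median of all probe sets Ilk then stood at 0.26, against 0.12 in the main comparison. Vinc, the vinculin gene, whose product binds talin and actin, had 89.2, 103.3 and 82.2 across GSC 1 to 3, and 258.5, 78.1 and 103.8 across Kc 1 to 3. Kc 1 stood well above the other Kc arrays, and the rest overlapped. The log2 fold of Vinc was -0.39 ± 0.37 (SE, adjusted p = 0.482) and 0.01 without Kc 1 (adjusted p = 0.986).

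Genes that act with these members were read from 3 further lists. The first holds the remaining alpha subunit genes ItgaPS4 and ItgaPS5. ItgaPS5 had 172.9, 61.3 and 115.8 across GSC 1 to 3 and 7, 7.9 and 61.9 across Kc 1 to 3, a log2 fold of 1.32 ± 0.42 (SE, adjusted p = 0.0334). GSC 2 lay below Kc 3. The call was lost without GSC 1, GSC 3, Kc 1 or Kc 2 (adjusted p between 0.0819 and 0.113). ItgaPS4, a neighbour of scb on the chromosome, was dim in both groups, with a GSC mean of 22.2, a Kc mean of 41.6 and a log2 fold of -0.34 (adjusted p = 0.513).

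Of 18 listed genes of the adhesion complex, 13 were measured, and 0 were higher, 3 lower and 10 passed neither way. At an adjusted p under 0.05 with no fold minimum, limma had 1 higher and 4 lower, and at an unadjusted p under 0.05 2 higher and 4 lower. The higher gene was the alpha-actinin gene Actn (log2 fold 0.53), named after its value was seen. Among all genes, each read by its brightest probe set, 20.5% were called with the fold minimum of 2, 12.5% higher and 8.02% lower. With no fold minimum, 2811 of all 13966 probe sets were higher and 2002 lower. The share of all genes at an unadjusted p under 0.05 was not taken. The median log2 fold of the 13 was 0.03, against 0.04 over all genes. The paxillin gene Pax, an adaptor of adhesion sites, had 606.7, 492.7 and 456.2 in GSC and 2660.5, 2680 and 2497 in Kc. Its log2 fold was -2.26 ± 0.13 (SE, adjusted p = 1.12e-06), and its second probe set was also lower (-1.84, adjusted p = 1.85e-05). The gene parvin, a partner of Ilk, had 366, 346.7 and 519.5 in GSC and 1526.1, 1084.5 and 1297.2 in Kc, a log2 fold of -1.59 ± 0.18 (adjusted p = 0.000109). Both separated the groups on every array.

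The other lower gene was CAP, a vinculin-binding adaptor, at -1.01 (adjusted p = 0.00167), close to the fold minimum. Of its other 3 probe sets 1 was called lower (-1.25) and the others were not (-0.08 and -0.68). Leaving out any of GSC 1, GSC 2, Kc 2 or Kc 3 took CAP to between -0.99 and -0.94, below the minimum, and it was at -0.60 with scaling to the hybridisation controls and at -0.74 with the pseudocount at the median. The remaining core partners of Ilk are named here after their values were seen. The PINCH gene stck had 1388 ± 177 in GSC and 2233 ± 40.9 in Kc (SD, n = 3; log2 fold -0.68, adjusted p = 0.00138), under the fold minimum, and ics, the gene of the PINCH-binding protein RSU1, had a log2 fold of 0.03 (adjusted p = 0.896). Within the complex of Ilk, PINCH and parvin, the parvin gene alone was called, and the difference between these genes' folds was not tested.

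Of 10 genes of matrix ligands and basement membrane, all measured, 2 were higher, 4 lower and 4 passed neither way. Among all genes by brightest probe set, 12.5% were called higher and 8.02% lower. The median log2 fold was -0.65 over the 10 and 0.04 over all genes. LanB2, the laminin gamma chain gene, had a log2 fold of -6.60, the alpha chain gene LanA -5.64 and the beta chain gene LanB1 -3.02. LanB1 had 451.6, 539.6 and 494.7 in GSC and 3327.9, 4849.5 and 4844.3 in Kc. The perlecan gene trol was higher, with 242.2, 304.8 and 310.6 in GSC and 110.1, 63.2 and 84.2 in Kc (a log2 fold of 1.40, with adjusted p = 0.00152). Its second probe set was called higher as well (1.06), while with the pseudocount at the median trol was at 0.86. At an adjusted p under 0.05 with no fold minimum the list had 2 higher and 5 lower. By that rule 2811 of all 13966 probe sets were higher and 2002 lower. Named after their values were seen, a collagen IV gene, vkg, was the other lower gene (-1.20, adjusted p = 0.0188). The brighter collagen IV gene Col4a1, with means of 317 in GSC and 518 in Kc, was under the fold minimum (-0.64, adjusted p = 0.0173). The call of vkg was lost without GSC 2, GSC 3 or Kc 3 (adjusted p between 0.0586 and 0.072), with a median pseudocount (-0.55) and under hybridisation control scaling (-0.91). The second laminin alpha chain gene, wb, an integrin ligand, was the other higher one (1.32, adjusted p = 0.00409), and it was at 0.51 with the pseudocount at the median. Beside these genes, the hemocyte markers Hml, Pxn and srp were called lower in GSC, and NimC1, eater and Sr-CI were not called.

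**Figure D4:**
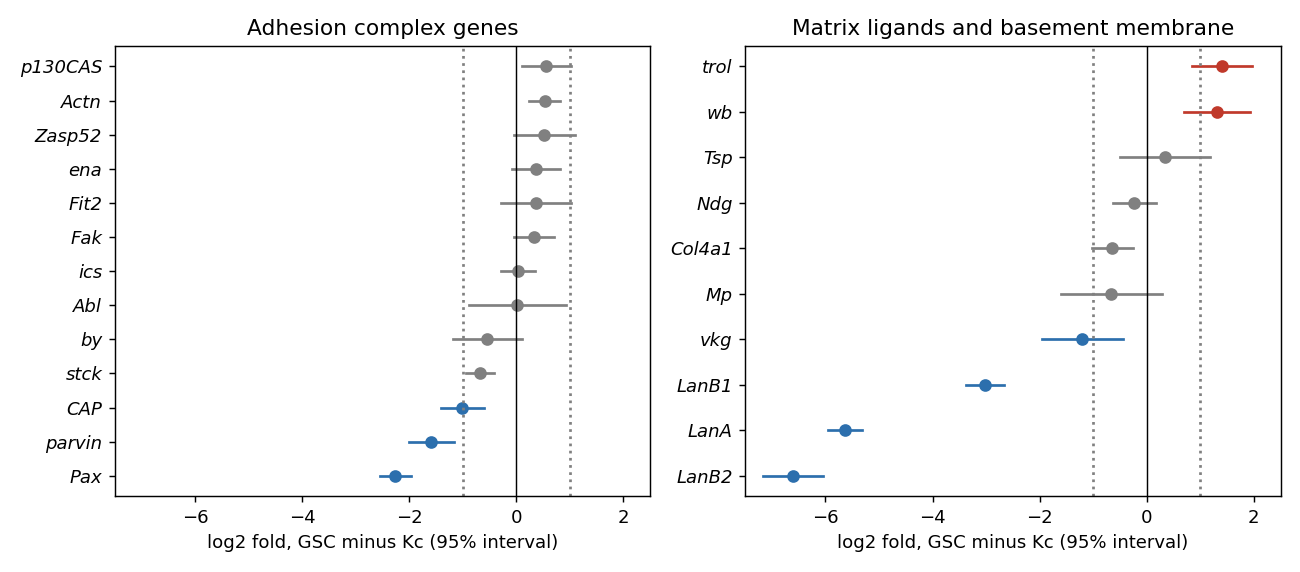
log2 fold of GSC over Kc with 95% intervals for the 13 measured adhesion complex genes (left) and the 10 matrix genes (right), each by its brightest probe set. Blue genes were called lower, red genes higher, and dotted lines mark a fold of 2. Pax (-2.26) and parvin (-1.59) on the left, and 3 laminin chain genes on the right, have the lowest values.

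Muscle and ovarian somatic cells, which use integrins heavily, were looked for by their markers. Of 7 measured muscle sheath markers 0 were called by limma, against 20.5% of all genes. At an unadjusted p under 0.05 there were 2, and the share of all genes at that threshold was not taken. Mlc2 (log2 fold -0.77) and bt (0.89), named after their values were seen, had an adjusted p under 0.05 but a fold under 2. That bt probe set was dim, with 33.5, 78.4 and 23.1 in GSC and 6.8, 5.3 and 3.2 in Kc. The second bt probe set went the other way and was not called (-0.35, adjusted p = 0.179). The summed signal of the 7 muscle sheath markers was 383 to 538 on the GSC arrays and 581 to 882 on the Kc arrays. Of 7 measured ovarian somatic cell markers 1, zfh1, was lower in GSC and 0 were higher by limma, with 0 higher at an unadjusted p under 0.05. The genes tj, upd1 and ptc lay below the 25th percentile on all GSC arrays, while hh, eya and en exceeded it on at least 1. The zfh1 signal exceeded it on every GSC array, with 379.1, 252 and 172.3 across GSC 1 to 3. On all Kc arrays upd1, ptc and en lay below that percentile, so dim signals were not particular to GSC. The summed signal of that list was 338 to 516 in GSC and 3061 to 3411 in Kc, most of it from zfh1.

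The profile of mys over the 6 arrays was set against every other probe set with a single gene name. The 3 highest Pearson correlations were those of LSm7, a gene of an RNA-binding complex (r = 0.993), and of CG17198 and CG4278 (r = 0.989 each). These are descriptions over 6 arrays that fall into 2 groups, picked as the highest of many. LSm7 had 2498.1, 1943.9 and 1805.4 across GSC 1 to 3 and 1034.6, 1732.4 and 1243.4 across Kc 1 to 3. Like mys it was highest on GSC 1 and lowest on Kc 1, with Kc 2 the highest Kc array.

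**Figure D5:**
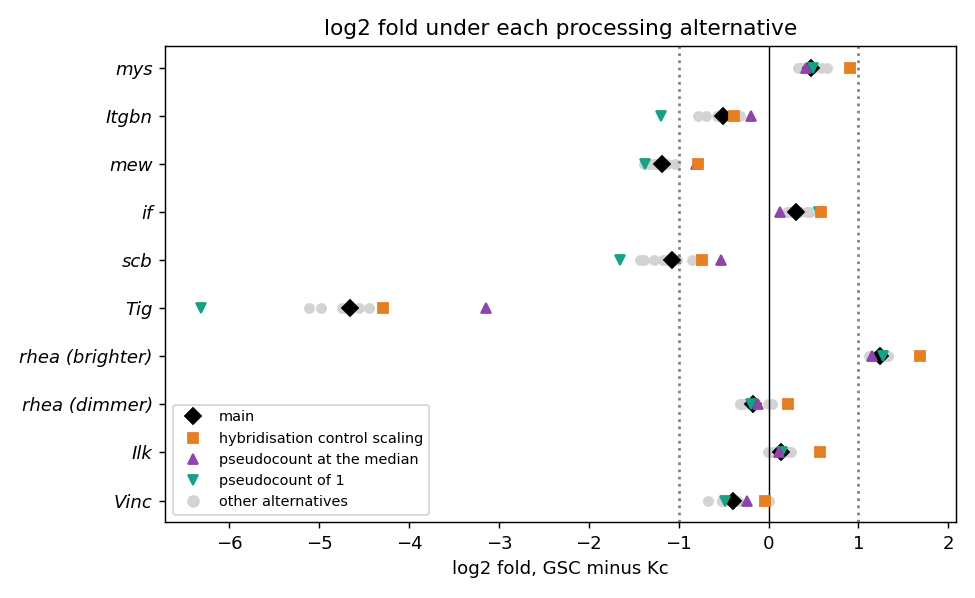
log2 fold of GSC over Kc for each probe set under the main processing (black diamond) and each of the alternatives of normalization, pseudocount, filter, variance model and left-out array. Tig ranges from -6.31 to -3.14, with the pseudocount setting both ends, and the brighter rhea probe set stays between 1.12 and 1.68. mew crosses the dotted fold minimum with hybridisation control scaling (-0.79) and the pseudocount at the median (-0.81).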

How the data were processed

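Each array's file column gives, per probe set, a single intensity that the authors deposited without taking logs. The submitters' processing notes name MAS5, with no version or settings stated in the labels, and no detection call was used. The mean with 2% of values trimmed from either end was 500.1 on every array, so no second normalization was applied. The table held 14010 probe sets, of which 44 array controls were left out of the tests, and 0 columns had no sample.

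GSC and Kc were compared with limma 3.58.1 in R 4.3.3 (lmFit, and eBayes with an intensity trend and robust estimation, two-sided), with Benjamini-Hochberg adjustment over 13966 probe sets. The number of arrays limits the precision. On simulated arrays with 13966 probe sets, 60% of 100 probe sets with a true log2 change of 1.5 were recovered. So were 81% of 100 with a change of 2, with 2 false calls. No other probe set was given a change, whereas 19.8% were called in the data. The adjusted p depends on that share, so these rates need not hold for the comparison of GSC and Kc.

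Gene names came from the platform annotation, where 12443 probe sets had 1 symbol, 327 several and 1196 none. By gene identifier 12394 matched the RefSeq table. All probe sets of the members were named. Of each list the 4 called genes with the largest absolute folds were named, and the brightest probe set stood for a gene. The members and lists were chosen with earlier results of these data known.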

Additional observations from a re-analysis of the deposited data

How the results depend on the processing

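Direction and side of the threshold were the same for Tig and the brighter rhea probe set under all 15 alternatives fitted on the arrays. The call of mew was lost with the pseudocount at the median (-0.81) and with hybridisation control scaling (-0.79), which each left 1 member probe set lower. scb was called with quantile normalization (-1.14), scaling to the median (-1.17), dim probe sets left out (-1.07) and without GSC 1. Leaving out each array gave scb between -1.43 and -0.78, Vinc between -0.67 and 0.01, and the dimmer rhea probe set between -0.32 and 0.04. The dimmer rhea probe set also changed sign with hybridisation control scaling (0.22), and Ilk with quantile normalization (-0.0025). None of these sign changes was in a called value. The mean over probe sets gave rhea 0.53. The dim filter left Itgbn out, so 14 alternatives cover it. The cause of the differences between alternatives was not tested. Hybridisation control scaling gave 2811 higher and 686 lower probe sets (80.4% higher, against 59.1% from 1633 and 1132 in the main comparison), and the pseudocount at the median 956 and 735. A fold minimum of 1.5 gave 2528 and 1739, and no minimum 2811 and 2002. ItgaPS5 left its list with 0 higher genes with the pseudocount at the median or a floor, and with between 0 and 1 on leaving out an array. The adhesion complex had 1 higher gene with no minimum. The matrix list had 0 higher genes with the pseudocount at the median and 1 with dim probe sets left out. The uncalled ics changed sign with quantile normalization (-0.07) and scaling to the median (-0.09), and leaving out each array gave it between -0.05 and 0.14, negative without GSC 2 or Kc 3. No shared deviation of same-numbered arrays was seen, with correlations of -0.0295, 0.0364 and -0.00703. These values cannot tell whether such arrays were handled together. With the replicate number as a block no member call changed (Tig -4.66, mew -1.18, brighter rhea 1.24), and 1619 probe sets were higher and 1120 lower.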
